A study of Mus musculus with 8 samples.

Results

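The chemokine system of the kidney was examined through 57 genes of the 55401 in the deposited gene table. They were taken by name alone, as every gene whose symbol begins with Ccl, Cxcl, Xcl or Cx3cl (39 ligands) or Ccr, Cxcr, Xcr or Cx3cr (18 receptors) followed by a number and at most 1 letter. No measured value entered the choice. All 57 identifiers were found in the mouse GENCODE M21 annotation (GRCm38), with 14 on chromosome 11, 11 on chromosome 5, 11 on chromosome 9 and the others on chromosomes 1, 4, 6, 7, 8, 13, 17 and X.

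RNA was sequenced from kidney tissue of 8 diabetic mice, 4 treated with rFGF4 (mice 1, 2, 3 and 5) and 4 labelled as the db/db model (mice 2, 3, 4 and 5), here called vehicle because the study's methods give PBS to the controls. The rFGF4 was a recombinant human FGF4 altered to lose its mitogenic activity. In the study's db/db experiment, males carrying the leptin receptor db mutation on the C57BLKS/J background were 12 weeks old at the first injection and received 1 mg per kg body weight into the peritoneum every other day for 8 weeks. Both groups were diabetic, and no healthy kidney was analysed here. The labels give the db/db genotype for the 4 vehicle libraries and no genotype for the 4 rFGF4 libraries, and the design text places both groups in db/db mice, while the study's text speaks of streptozotocin-induced diabetes for the sequenced kidneys. The gene table does not settle which model it was. The same mouse numbers in the 2 groups are names and do not mark pairs.

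Chemokines are small secreted proteins that draw leukocytes along a gradient by binding G protein-coupled receptors on their surface. CC ligands act mainly on monocytes, macrophages and T cells, and the CXC ligands of the CXCR2 receptor act on neutrophils. The interferon-induced CXC ligands of CXCR3 act on activated T cells and NK cells, and a homeostatic set (Ccl19, Ccl21, Cxcl12, Cxcl13) places cells within lymphoid tissue and bone marrow. In the diabetic kidney, injured tubule cells, podocytes, mesangial cells and resident macrophages can all release them.

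The values were FPKM, fragments scaled to transcript length and to the mapped total of each library, so that levels can be set beside each other between genes. Relative depth, read from the ratio that low genes share between libraries, ran from 0.904 to 1.09 of that of vehicle mouse 2 in the rFGF4 group and from 1 to 1.12 in the vehicle group. The kidney identity of the libraries was clear from 8 proximal tubule markers, whose summed level was 409 to 2020 FPKM in the rFGF4 group and 1250 to 2360 FPKM in the vehicle group, with no marker listed at 0 in any mouse. Leukocyte marker levels differed widely between mice of the same group. The 12 macrophage and monocyte markers summed to 1350, 493, 137 and 94.8 FPKM in rFGF4 mice 1, 2, 3 and 5, and to 50.7, 363, 66.1 and 1870 FPKM in vehicle mice 2, 3, 4 and 5. None of the 12 was listed at 0 in any mouse. B cell and plasma cell markers stood at 23900 FPKM in vehicle mouse 5, against 27.5 to 2820 FPKM in the other mice. In bulk tissue, more cells of a type and more RNA per cell cannot be told apart.

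Detection followed the same mice. At 0.5 FPKM or more, the number of chemokine and receptor genes was 42, 40, 25 and 23 in rFGF4 mice 1, 2, 3 and 5, and 14, 34, 23 and 43 in vehicle mice 2, 3, 4 and 5. Of the 57 genes, 36 reached 0.5 FPKM in at least 4 libraries and entered the test (29 ligands and 7 receptors). The other 21 (10 ligands and 11 receptors) did not, with a highest value of 4.68 FPKM in any mouse, which was Ccl22 in vehicle mouse 5. Ccl26 was listed at 0 in all 8 mice.

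The ligands with the highest mean level over the 8 mice were Cxcl16 (25.8 FPKM), Cx3cl1 (21.4 FPKM), Ccl8 (19.8 FPKM), Cxcl1 (18.9 FPKM), Cxcl14 (15.1 FPKM), Ccl6 (9.55 FPKM), Cxcl5 (9.21 FPKM) and Cxcl12 (8.88 FPKM). Most of these means rest on a few high mice, and neighbours in the order did not stand apart beyond the spread between mice. Among receptors Cxcr4 was the highest at 6.07 FPKM, followed by Cxcr6 at 2.45 FPKM.

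**Figure D1:**
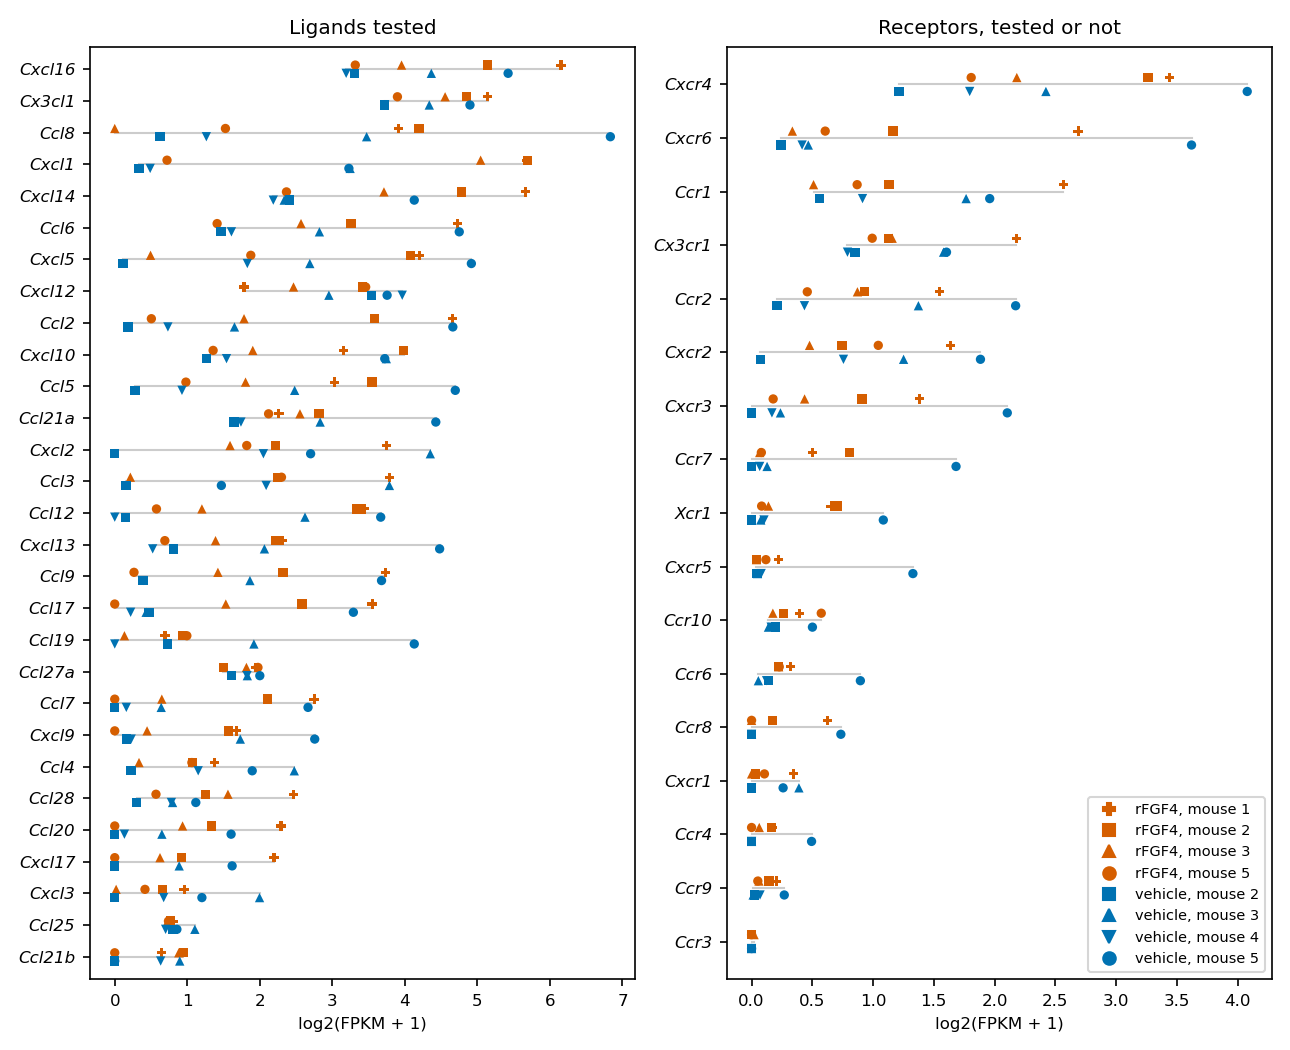
Level of the 29 tested ligands (left) and the receptors (right), as log2(FPKM + 1), with 1 point per mouse, orange for rFGF4 and blue for vehicle; the grey line joins the lowest and highest mouse. The groups overlap for every gene, and vehicle mouse 5 and rFGF4 mouse 1 hold most of the highest points.

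The comparison asked whether rFGF4 treatment changed chemokine and receptor transcripts in the diabetic kidney. None of the 36 tested genes passed the study's threshold, which asks for 1.5-fold higher or 0.67 times the level or lower together with an unadjusted p under 0.05, in limma on log2(FPKM + 1). Over all 15150 genes tested, 232 did (1.53%), 165 higher and 67 lower in rFGF4, or 93 higher and 83 lower with the libraries scaled to a common median ratio. None of the 36 had an unadjusted p under 0.05 either, against 700 of all genes (4.62%), and no gene in the table had an adjusted p under 0.05. The smallest unadjusted p of a chemokine or receptor gene was 0.0803 and the smallest exact two-sided permutation p was 0.143, where 4 mice against 4 can reach 0.0286. The groups overlapped for all 57 genes, while 504 of all tested genes (3.33%) had groups that did not overlap.

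On the log2 scale 23 of the 36 differences were positive, that is higher in rFGF4, and 13 were negative. Among all genes tested 67.1% were positive. The median difference was 0.24 for the 36 genes and 0.09 for all genes tested. As each mouse was left out, the median of the 36 ran from -0.14 (without rFGF4 mouse 1) to 0.58 (without vehicle mouse 5). It was -0.32 with a replicate block on numbers 2, 3 and 5 and -0.05 with the mean of macrophage markers as a covariate. For 32 of the 36, the difference was smaller than 1 SD between mice of the same group. A difference that misses the threshold at this spread does not show that the groups are alike.

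The CXCR2 ligands are the neutrophil attractants Cxcl1, Cxcl2, Cxcl3, Cxcl5 and Cxcl15. Of these 5, 4 were tested, 3 with a positive and 1 with a negative difference, with a median of 0.17, and none had an unadjusted p under 0.05. Cxcl1, Cxcl2 and Cxcl3 lie in the same region of chromosome 5 (Cxcl3 at chr5:90786103-90789600, Cxcl1 at chr5:90891241-90893115 and Cxcl2 at chr5:90903871-90905938, all on the plus strand of GRCm38). Cxcl15 lies between Cxcl3 and Cxcl1. The promoters of Cxcl1, Cxcl2 and Cxcl3 are shown because these 3 genes share a sequence element, while Cxcl1 was highest in other mice than Cxcl2 and Cxcl3. Each is the 250 bases before the RefSeq start site on GRCm38.p6, in the direction of the gene, and capitals mark matches to the NF-kB consensus or, in Cxcl10, also to the core of an interferon-stimulated response element, searched as GAAA, any 2 bases and GAAA again. The promoter of Cxcl10, an interferon-induced ligand, lies on the minus strand at chr5:92348890-92349139. The promoter of Cxcl12, a homeostatic ligand, at chr6:117168285-117168534, is shown as one with neither match.
Cxcl1, chr5:90890995-90891244, plus strand: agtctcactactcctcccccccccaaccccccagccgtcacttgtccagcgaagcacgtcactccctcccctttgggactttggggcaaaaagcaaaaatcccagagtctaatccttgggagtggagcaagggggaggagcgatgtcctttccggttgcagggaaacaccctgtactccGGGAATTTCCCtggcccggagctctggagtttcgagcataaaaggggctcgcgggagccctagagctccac
Cxcl2, chr5:90903649-90903898, plus strand: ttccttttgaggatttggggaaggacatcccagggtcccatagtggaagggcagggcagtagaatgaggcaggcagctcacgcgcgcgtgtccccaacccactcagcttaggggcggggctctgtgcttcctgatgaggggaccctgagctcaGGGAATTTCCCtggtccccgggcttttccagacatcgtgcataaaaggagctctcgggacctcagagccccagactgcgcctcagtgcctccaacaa
Cxcl3, chr5:90785851-90786100, plus strand: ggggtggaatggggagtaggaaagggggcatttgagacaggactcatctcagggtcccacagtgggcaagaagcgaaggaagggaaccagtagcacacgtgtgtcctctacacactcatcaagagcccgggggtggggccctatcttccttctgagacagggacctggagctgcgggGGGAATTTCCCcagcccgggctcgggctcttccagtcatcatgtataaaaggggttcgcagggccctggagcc
Cxcl10, minus strand: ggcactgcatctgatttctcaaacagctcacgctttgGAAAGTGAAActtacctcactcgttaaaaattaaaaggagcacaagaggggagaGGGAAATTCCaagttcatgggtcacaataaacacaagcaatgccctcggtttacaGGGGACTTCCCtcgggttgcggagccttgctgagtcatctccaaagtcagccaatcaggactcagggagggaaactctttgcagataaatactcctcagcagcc
Cxcl12, plus strand: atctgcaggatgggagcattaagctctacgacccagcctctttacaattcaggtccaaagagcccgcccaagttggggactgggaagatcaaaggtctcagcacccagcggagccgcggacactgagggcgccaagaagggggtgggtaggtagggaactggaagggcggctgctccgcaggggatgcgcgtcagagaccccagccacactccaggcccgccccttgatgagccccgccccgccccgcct

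In Cxcl1, Cxcl2 and Cxcl3 the capitals spell the same 11 bases, GGGAATTTCCC, which begin 71, 97 and 73 bases before the start site and match the consensus on both strands with overlap. Cxcl10 holds 2 such stretches, GGGAAATTCC and GGGGACTTCCC, and further upstream GAAAGTGAAA. Searched on both strands, the NF-kB consensus was found in 10 of the 49 promoters listed for 42 chemokine and receptor genes (Ccl1, Ccl20, Ccl9, Ccr1, Ccr3, Ccr6, Cxcl1, Cxcl2, Cxcl3 and Cxcl10) and in 7.25% of all 32851 promoters, over the same 250 bases. The interferon element core was found in Ccl19, Cxcl10 and Cxcl14 and in 2.98% of all promoters. The other CXCR2 ligands, Cxcl5 and Cxcl15, are not among the 10 genes with the NF-kB consensus. A match describes the letters and is not evidence that the factor binds there.

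Cxcl1 was measured at 50.4, 50.6, 32.0 and 0.648 FPKM in rFGF4 mice 1, 2, 3 and 5, and at 0.26, 8.48, 0.403 and 8.37 FPKM in vehicle mice 2, 3, 4 and 5. In 3 of the 4 treated mice it was above every vehicle mouse, and rFGF4 mouse 5 lay close to the 2 lowest vehicle mice. The log2 fold change was 2.46 (SE 1.24), with p = 0.0803 and adjusted p = 0.918 in limma, and the exact permutation p was 0.171. Without rFGF4 mouse 5 it was 3.65 (SE 0.82) with adjusted p = 0.382 in limma, past the threshold, in a fit that passed 3.83% of all genes, and the other leave-outs gave 1.96 to 2.94 with none past the threshold.

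Cxcl2 had another order of mice. Its values were 12.4, 3.65, 2.01 and 2.53 FPKM in rFGF4 mice 1, 2, 3 and 5, and 0, 19.4, 3.14 and 5.5 FPKM in vehicle mice 2, 3, 4 and 5, where vehicle mouse 2 was listed at 0. The highest mouse was therefore vehicle mouse 3, and the log2 fold change was 0.07 (SE 0.87). Cxcl3 was also highest in vehicle mouse 3 (2.99 FPKM) and was below 1 FPKM in all 4 treated mice, with a difference of -0.46 (SE 0.41, exact permutation p = 0.371). Cxcl5 ranged from 0.408 to 17.4 FPKM in rFGF4 and from 0.0826 to 29.2 FPKM in vehicle, a difference of 0.28 (SE 1.15, exact permutation p = 0.857). Cxcl15, which was not tested, reached 0.332 FPKM.

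Neutrophil markers were high in vehicle mouse 3, where Cxcl2 and Cxcl3 were highest. The 10 markers, with Lcn2 among them, which injured tubule cells also make, summed to 624, 153, 40.3 and 100 FPKM in rFGF4 mice 1, 2, 3 and 5, and to 6.47, 517, 70.9 and 318 FPKM in vehicle mice 2, 3, 4 and 5. In rFGF4 mouse 3, where Cxcl1 stood at 32.0 FPKM, the neutrophil marker sum was the second lowest of the 8. Of the 10 markers, 5 were listed at 0 in some mouse and none in all. The part of neutrophil content in these ligands was not tested.

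The remaining CXC ligands are Cxcl12, Cxcl13, Cxcl14, Cxcl16 and Cxcl17, all 5 tested, with 3 positive and 2 negative differences and a median of 0.31. Cxcl14, made by epithelial cells of many tissues, was measured at 49.7, 26.4, 12.1 and 4.16 FPKM in rFGF4 mice 1, 2, 3 and 5, and at 4.32, 4.05, 3.55 and 16.5 FPKM in vehicle mice 2, 3, 4 and 5. Vehicle mice 2, 3 and 4 lay within 1 FPKM of rFGF4 mouse 5, and vehicle mouse 5 lay within the range of the other treated mice. The log2 fold change was 1.36 (SE 0.72, p = 0.0952, adjusted p = 0.918 in limma; exact permutation p = 0.2). It was 1.95 without rFGF4 mouse 5 and 1.82 without vehicle mouse 5, both past the study's threshold but not at an adjusted p under 0.05, in fits that passed 3.83% and 2.86% of all genes. Without rFGF4 mouse 1 it was 0.85 and did not pass.

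Cxcl12, the ligand of Cxcr4 and of the scavenging receptor Ackr3, had another order of mice. Its values were 2.44, 9.68, 4.52 and 10.0 FPKM in rFGF4 mice 1, 2, 3 and 5, and 10.6, 6.74, 14.6 and 12.5 FPKM in vehicle mice 2, 3, 4 and 5. The lowest pair were treated mice 1 and 3, and 3 of the 4 vehicle mice were above every treated mouse. The difference was -0.77 (SE 0.40, p = 0.0897, adjusted p = 0.918 in limma; exact permutation p = 0.143), the smallest permutation p of all 36. Without rFGF4 mouse 2 it was -0.98 and without rFGF4 mouse 5 it was -1.0, past the study's threshold in both fits which passed 1.24% and 3.83% of all genes, with adjusted p of 0.995 and 0.527 in limma. Without rFGF4 mouse 1 it was -0.44 and did not pass. Proximal tubule markers were also lowest in rFGF4 mouse 1, at 409 FPKM against 1250 to 2360 FPKM in the other mice, and their part in the Cxcl12 value was not tested.

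Cxcl16, a membrane-bound ligand of Cxcr6 that also takes up oxidised lipoprotein, had the highest mean over the 8 mice, although Cx3cl1 was above it in 4 of them. It was measured at 70.1, 34.3, 14.5 and 8.96 FPKM in rFGF4 mice 1, 2, 3 and 5, and at 8.86, 19.6, 8.13 and 41.9 FPKM in vehicle mice 2, 3, 4 and 5. The mice stood in almost the order of their macrophage markers, and the groups overlapped over most of their range. The difference was 0.57 (SE 0.70, exact permutation p = 0.514). The exons of Cxcl16 overlap those of Zmynd15, and whether the reads were assigned by strand is not given in the sources used here. Such an overlap with another gene was found for 9 of the 57 genes. Cxcl10 (Art3), Cxcl11 (Gm2673), Cxcr5 (Bcl9l), Xcl1 (Gm20743) and Ccr9 are among them. Cxcl13 and Cxcl17 differed by -0.32 (SE 0.84) and 0.31 (SE 0.52).

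**Figure D2:**
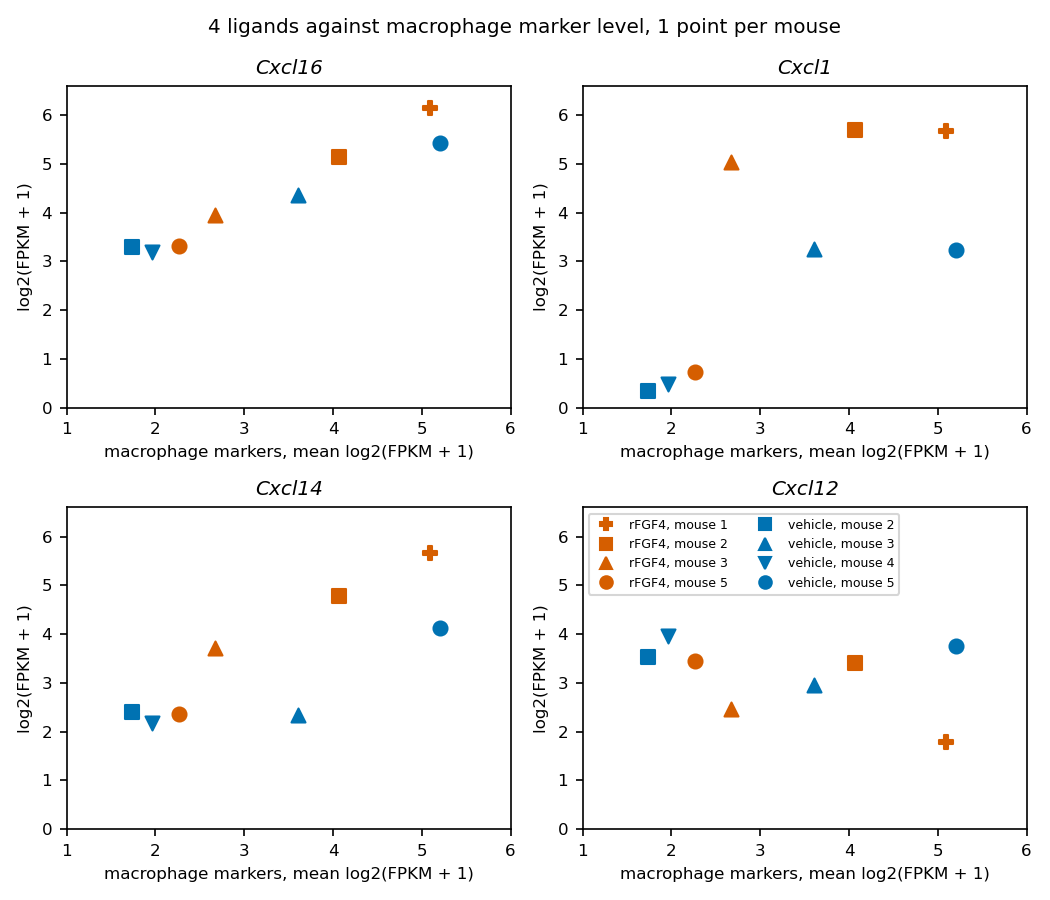
Level of Cxcl16, Cxcl1, Cxcl14 and Cxcl12 in each of the 8 mice, as log2(FPKM + 1), against the mean log2(FPKM + 1) of 12 macrophage and monocyte markers in the same library, orange for rFGF4 and blue for vehicle. Cxcl16 climbs along the macrophage axis in both groups, Cxcl1 is at 32.0 FPKM in rFGF4 mouse 3 with few macrophage markers, and Cxcl12 is lowest in rFGF4 mouse 1.

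The CC ligands that attract monocytes and T cells formed the largest set, with 9 of 12 tested, 7 positive and 2 negative, a median of 0.33 and none with an unadjusted p under 0.05. Ccl2, the main monocyte attractant and the ligand of Ccr2, was measured at 24.2, 11.0, 2.44 and 0.419 FPKM in rFGF4 mice 1, 2, 3 and 5, and at 0.135, 2.14, 0.662 and 24.3 FPKM in vehicle mice 2, 3, 4 and 5. The highest treated mouse and the highest vehicle mouse were almost equal, and the lowest of each group was below 0.5 FPKM, a span of 180-fold over the 8 mice. The difference was 0.82 (SE 1.16, exact permutation p = 0.6), and it ran from 0.15 to 1.77 as each mouse was left out. Ccl7 and Ccl12, which lie beside Ccl2 on chromosome 11 and share Ccr2, differed by 0.51 (SE 0.76) and 0.53 (SE 1.0) with the same pair of mice, rFGF4 mouse 1 and vehicle mouse 5, near or at the top.

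Ccl8, a monocyte attractant related to Ccl2, had the widest spread of any ligand on the log2 scale. It was at 14.1, 17.3, 0 and 1.88 FPKM in rFGF4 mice 1, 2, 3 and 5, and at 0.542, 10.1, 1.4 and 113 FPKM in vehicle mice 2, 3, 4 and 5. The value of 113 FPKM in vehicle mouse 5 and the listing at 0 in rFGF4 mouse 3 set the difference of -0.64 (SE 1.47, exact permutation p = 0.8), which turned to 0.62 without the former and to 0.17 without the latter. Ccl6, a ligand of myeloid cells, was at 25.5, 8.57, 4.93 and 1.66 FPKM in rFGF4 mice 1, 2, 3 and 5 and at 1.76, 6.07, 2.05 and 25.9 FPKM in vehicle mice 2, 3, 4 and 5, a difference of 0.33 (SE 0.88, exact permutation p = 0.829). Its neighbour Ccl9 gave 0.35 (SE 0.92).

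Ccl5, released by activated T cells and tubule cells, was at 7.17, 10.7, 2.49 and 0.974 FPKM in rFGF4 mice 1, 2, 3 and 5, and at 0.214, 4.58, 0.901 and 24.9 FPKM in vehicle mice 2, 3, 4 and 5. The extremes of both ends were vehicle mice, and the difference was 0.25 (SE 0.98, exact permutation p = 0.829). Ccl3 and Ccl4 were named after their values were seen because their order of mice was unlike that of Ccl5. Ccl3 reached 12.8 FPKM in both rFGF4 mouse 1 and vehicle mouse 3 but 1.77 FPKM in vehicle mouse 5. Ccl4 was highest in vehicle mouse 3 at 4.56 FPKM, with a difference of -0.48 (SE 0.46, exact permutation p = 0.457) that was -0.88 and past the study's threshold (adjusted p = 0.999 in limma) without vehicle mouse 2, in a fit that passed 1.43% of all genes, and -0.13 without vehicle mouse 3. The eosinophil attractants Ccl11 and Ccl24 did not enter the test, with highest values of 1.76 FPKM in rFGF4 mouse 1 and 0.496 FPKM in vehicle mouse 5.

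The homeostatic and barrier CC ligands were mostly low. Of the 12 on this list 11 were in the table and 8 were tested, 4 positive and 4 negative, with a median of 0.11. Ccl17, a dendritic cell product that attracts Ccr4-bearing T cells, was at 10.7, 4.99, 1.89 and 0 FPKM in rFGF4 mice 1, 2, 3 and 5, and at 0.386, 0.35, 0.164 and 8.78 FPKM in vehicle mice 2, 3, 4 and 5. In 3 of 4 treated mice it was above 3 of 4 vehicle mice, and the difference was 0.81 (SE 0.90, exact permutation p = 0.457). Ccl22, the other Ccr4 ligand, was 1.17, 0.397, 0.272 and 0.195 FPKM in the treated mice and 0, 0.0685, 0.079 and 4.68 FPKM in the vehicle mice, in the same order of numbers. The 8 dendritic cell markers, of which Xcr1 is one of the genes described here, summed to 2.88 to 15.3 FPKM in rFGF4 and 1.61 to 19.8 FPKM in vehicle, with 3 listed at 0 in some mouse.

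Ccl19, Ccl21a and Cxcl13, which guide lymphocytes in lymphoid tissue, all had negative differences with a median of -0.32. Ccl21b, tested but outside this list of 3, had a positive difference of 0.24 (SE 0.28), with 3 mice listed at 0. Ccl19 was at 0.616, 0.906, 0.0971 and 0.992 FPKM in rFGF4 mice 1, 2, 3 and 5, and at 0.654, 2.78, 0 and 16.5 FPKM in vehicle mice 2, 3, 4 and 5, a difference of -1.01 (SE 0.79, exact permutation p = 0.4). Without vehicle mouse 5 it was -0.19. Ccl21a was 3.35 to 6.05 FPKM in the treated mice and 2.13, 6.12, 2.34 and 20.5 FPKM in vehicle mice 2, 3, 4 and 5, and its difference of -0.22 (SE 0.57, exact permutation p = 0.829) turned to 0.37 without vehicle mouse 5. Cxcl13 was 0.614 to 3.97 FPKM in the treated mice and 0.752, 3.18, 0.437 and 21.3 FPKM in the vehicle mice, and its difference turned from -0.32 to 0.52 without that mouse. B cell and plasma cell markers (10 of 10 highest in rFGF4 mouse 1 or vehicle mouse 5) and the 3 ligands were high in the same mouse, and the part of lymphoid cells in these values was not tested. Ccl19, Ccl21a, Ccl21b and Ccl21d have near-identical copies in the mouse genome, so the division of reads between copies is uncertain.

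The ligands of barrier epithelium include Ccl20, Ccl25, Ccl27a and Ccl28. Ccl28, named after its values were seen, was at 4.53, 1.38, 1.95 and 0.483 FPKM in rFGF4 mice 1, 2, 3 and 5, and at 0.234, 0.738, 0.718 and 1.17 FPKM in vehicle mice 2, 3, 4 and 5. As with Cxcl1, 3 of the 4 treated mice were above all vehicle mice and rFGF4 mouse 5 was not. The difference was 0.71 (SE 0.38, exact permutation p = 0.171), and without rFGF4 mouse 5 it was past the study's threshold (adjusted p = 0.481 in limma), while without rFGF4 mouse 1 it was 0.38 and did not pass. Ccl20, which draws Ccr6-bearing cells, ranged from 0 to 3.9 FPKM in rFGF4 and from 0 to 2.04 FPKM in vehicle and gave 0.54 (SE 0.52). Ccl25 and Ccl27a varied least of all tested genes, from 0.626 to 1.15 FPKM and from 1.82 to 3.0 FPKM, with differences of -0.11 (SE 0.11) and -0.01 (SE 0.15). Both share exons with another gene (Elavl1 and Il11ra1), and Ccl27a has the near-identical copy Ccl27b, which was not tested and was listed at 0 in all 4 vehicle mice and at 0.4, 0.28, 0 and 0.303 FPKM in rFGF4 mice 1, 2, 3 and 5. Ccl1, Ccl21b and Ccl21d stayed below 1 FPKM in all mice.

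The CXCR3 ligands Cxcl9, Cxcl10 and Cxcl11 are induced by interferon. Cxcl10 was at 7.89, 14.8, 2.74 and 1.56 FPKM in rFGF4 mice 1, 2, 3 and 5, and at 1.41, 12.4, 1.91 and 12.2 FPKM in vehicle mice 2, 3, 4 and 5. Each group had a high pair and a low pair, and the difference was 0.03 (SE 0.77, exact permutation p = 0.914). Cxcl9 reached 5.76 FPKM in vehicle mouse 5 and gave -0.30 (SE 0.65), and Cxcl11 stayed below 0.5 FPKM in all mice. Of 12 other interferon-induced genes, 4 were positive and 8 negative with a median of -0.30, and none had an unadjusted p under 0.05.

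Cx3cl1, or fractalkine, is a membrane-bound ligand of endothelium and tubule cells that holds Cx3cr1-bearing macrophages. It was the steadiest of the abundant ligands, at 34.3, 27.9, 22.5 and 13.9 FPKM in rFGF4 mice 1, 2, 3 and 5, and at 12.2, 19.2, 12.2 and 28.8 FPKM in vehicle mice 2, 3, 4 and 5. The means were 24.6 ± 8.63 FPKM (SD, n = 4) and 18.1 ± 7.84 FPKM (SD, n = 4), and the difference was 0.44 (SE 0.34, p = 0.231 in limma; exact permutation p = 0.286). It stayed between 0.26 and 0.68 as each mouse was left out. Xcl1, a T and NK cell product that attracts Xcr1-bearing dendritic cells, was not tested and reached 1.57 FPKM in vehicle mouse 5.

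Of the receptors, 7 of 18 were tested, 4 with a positive and 3 with a negative difference, and none had an unadjusted p under 0.05. Ccr1 and Ccr2 are found mainly on monocytes and macrophages. Ccr2 was at 1.92, 0.902, 0.829 and 0.374 FPKM in rFGF4 mice 1, 2, 3 and 5, and at 0.155, 1.59, 0.352 and 3.51 FPKM in vehicle mice 2, 3, 4 and 5, a difference of -0.10 (SE 0.44, exact permutation p = 0.914). Ccr1 ranged from 0.424 to 4.92 FPKM and gave -0.03 (SE 0.49).

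Cxcr4, the receptor of Cxcl12, was at 9.84, 8.59, 3.54 and 2.5 FPKM in rFGF4 mice 1, 2, 3 and 5, and at 1.32, 4.36, 2.47 and 15.9 FPKM in vehicle mice 2, 3, 4 and 5. Its lowest and its highest mouse were both vehicle, and the difference was 0.29 (SE 0.63, exact permutation p = 0.714). The ligand and the receptor did not share their order: in rFGF4 mouse 1 Cxcr4 was second highest and Cxcl12 lowest, and in vehicle mouse 5 both were high. Cxcr6, the receptor of Cxcl16 on T and NK cells, was at 5.44, 1.24, 0.262 and 0.522 FPKM in the treated mice and 0.182, 0.382, 0.334 and 11.3 FPKM in the vehicle mice, in the same order of numbers, a difference of 0.01 (SE 0.83, exact permutation p = 1). Cxcr2, the neutrophil receptor of Cxcl1, Cxcl2 and Cxcl5, ranged from 0.392 to 2.11 FPKM in rFGF4 and from 0.0504 to 2.69 FPKM in vehicle, and gave -0.02 (SE 0.40). Cx3cr1 was at 3.53 FPKM in rFGF4 mouse 1 and 0.728 to 2.04 FPKM in the other 7 mice, and gave 0.16 (SE 0.32); its exons overlap those of Gm33858.

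Receptors of lymphocytes were mostly below the test's filter. Ccr7, the receptor of Ccl19 and Ccl21 on T cells and dendritic cells, was at 0.414, 0.748, 0.0475 and 0.0573 FPKM in rFGF4 mice 1, 2, 3 and 5, and at 0, 0.0924, 0.0472 and 2.21 FPKM in vehicle mice 2, 3, 4 and 5. Cxcr5, the receptor of Cxcl13 on B cells, was at 1.51 FPKM in vehicle mouse 5 and at most 0.164 FPKM in the other 7. Vehicle mouse 5 was also the highest for Ccr4, Ccr6, Ccr8, Ccr9, Cxcr3 and Xcr1 among the untested receptors, while Cxcr1 was highest in vehicle mouse 3 at 0.31 FPKM, Ccr10 was highest in rFGF4 mouse 5 at 0.488 FPKM and Ccr3 was listed above 0 in rFGF4 mouse 3 alone. T cell and NK cell markers summed to 55.6 FPKM in vehicle mouse 5 and 2.68 to 24.0 FPKM in the other mice, with 6 of 13 listed at 0 in some mouse and none in all.

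Other genes of the chemokine system were taken from a list of 32 atypical receptors, platelet chemokines, signal transducers and proteases, of which 31 were in the table and 24 were tested. Of the 24, 18 were positive and 6 negative with a median of 0.11, 1 had an unadjusted p under 0.05 and none passed the study's threshold. That gene was Itch, a ubiquitin ligase that sends Cxcr4 to degradation among many other substrates. It was at 8.01, 10.4, 12.6 and 8.01 FPKM in the treated mice 1, 2, 3 and 5 and 5.8, 6.01, 7.33 and 6.83 FPKM in vehicle mice 2, 3, 4 and 5, so the groups did not overlap. The difference was 0.50 (SE 0.16, p = 0.0142, adjusted p = 0.918 in limma; exact permutation p = 0.0286, the smallest the design allows), a share of 1 in 24 beside 4.62% of all genes.

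Atypical receptors bind chemokines or related ligands without signalling through G proteins, and some of these receptors remove chemokines. Ackr3, which scavenges Cxcl12, was at 15.2, 17.2, 15.2 and 9.37 FPKM in rFGF4 mice 1, 2, 3 and 5, and at 9.66, 12.6, 13.7 and 10.2 FPKM in vehicle mice 2, 3, 4 and 5. In 3 of 4 treated mice it was above all vehicle mice, and the difference was 0.27 (SE 0.20, exact permutation p = 0.229). Ackr3 was above Cxcr4 in 7 of the 8 mice, the exception being vehicle mouse 5. Ccrl2 was at 0.706 to 2.22 FPKM in rFGF4 and 0.8 to 3.52 FPKM in vehicle, a difference of -0.26 (SE 0.32). Ackr1, Ackr2 and Ackr4 were not tested, and Ackr1 was listed above 0 in vehicle mice 3 and 5 alone.

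The 11 NF-kB inducible genes outside the chemokine family included several that were high in the same mice. Of these 10 were tested, 8 positive and 2 negative, with a median of 0.43 and none with an unadjusted p under 0.05. Nfkbia, which encodes the inhibitor that NF-kB itself induces, was at 54.9, 30.7, 22.7 and 12.4 FPKM in rFGF4 mice 1, 2, 3 and 5, and at 12.4, 28.9, 9.76 and 36.6 FPKM in vehicle mice 2, 3, 4 and 5. The adhesion molecule Vcam1 ranged from 0.743 to 55.4 FPKM in rFGF4 and from 0.587 to 34.6 FPKM in vehicle, a difference of 1.19 (SE 1.27, exact permutation p = 0.457). Vcam1 and Cxcl1 had in common that rFGF4 mouse 5 and vehicle mice 2 and 4 held the 3 lowest values.

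The spread between mice was wide across most of the family. Of the 25 tested genes with no mouse listed at 0, 18 had a highest level at least 10 times the lowest. Among the 36, the highest mouse was vehicle mouse 5 for 15 (41.7%), beside 13.4% of all genes tested. It was rFGF4 mouse 1 for 13 (36.1%), beside 48.1% of all genes tested. The lowest mouse was vehicle mouse 2 for 17 (47.2%) and rFGF4 mouse 5 for 8 (22.2%), beside 20.2% and 10.2% of all genes tested. Mice tied at 0 were counted for the first in the order, with rFGF4 mice before vehicle mice. Ccl7, Ccl20, Ccl21b and Cxcl17 were listed at 0 in both rFGF4 mouse 5 and vehicle mouse 2 and are counted for rFGF4 mouse 5. The division between these mice therefore rests in part on that order. For 16 of the 36 (44.4%) the 4 highest mice were rFGF4 mice 1 and 2 and vehicle mice 3 and 5, the 4 with the highest mean of macrophage markers, beside 17.4% of all genes tested. They included Ccl5, Ccl6, Ccl8, Ccl9, Ccl12, Ccr1, Ccr2, Cxcl2, Cxcl5, Cxcl9, Cxcl10, Cxcl13, Cxcl16, Cxcl17 and Cxcr4. These levels share their libraries with the markers, and the shares are given as a description.

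With the mean of the macrophage markers as a covariate, added after the data were seen, 3 of the 36 passed the study's threshold beside 1.99% of all genes. They were Cxcl1 (2.03, SE 0.83), Cxcl14 (1.08, SE 0.38) and Cxcl9 (-0.58, SE 0.16), all with adjusted p = 0.577 in limma. The markers themselves were measured after treatment in the same libraries, so a level adjusted for them is not a level of the treated kidney.

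**Figure D3:**
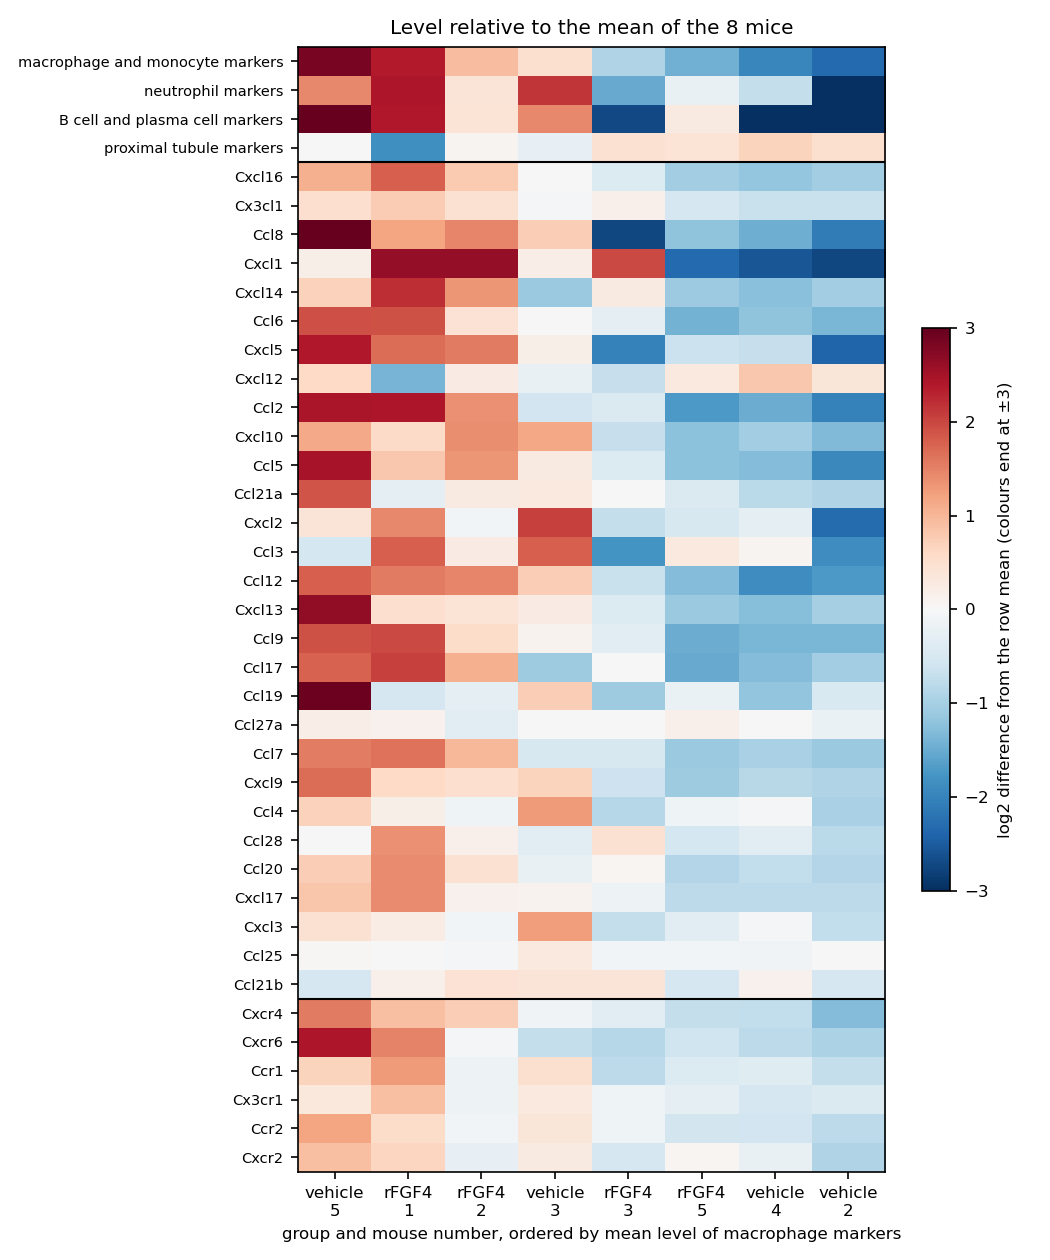
Level of 4 marker lists (log2 of summed FPKM + 1) and of the tested genes (log2(FPKM + 1); ligands above the lower black line, receptors under it) in each mouse, as the difference from the mean of the 8 mice, with mice ordered by their mean of macrophage markers. Most of the red (higher) lies in the 4 columns on the left, which hold 2 mice of each group, with exceptions such as Cxcl12 in rFGF4 mouse 1, Cxcl14 and Ccl17 in vehicle mouse 3 and Cxcl1 in rFGF4 mouse 3.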

How the data were processed

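Poly(A) RNA of kidney tissue from 8 mice, 1 library per mouse, was sequenced in paired-end mode. Per the labels the processing used Bowtie 0.12.2, HISAT2 2.0, StringTie 1.3.0 and genome build mm8, and the authors deposited 1 table of FPKM values per gene. The table holds no coordinates, and 99.5% of its identifiers are in GENCODE M21. A value of 0.0001 or less was read as 0. Deposited columns of fold ratios, log2 fold changes, p-values and q-values, from the authors' edgeR comparison, were not used. FPKM are not counts, so log2(FPKM + 1) was tested with limma 3.58.1 (trended prior variance, R 4.3.3) over the 15150 genes at 0.5 FPKM or more in at least 4 libraries, with Benjamini-Hochberg adjustment, and single genes by exact two-sided permutation over all 70 splits. Fold changes on this scale understate those of low genes. The fit was tested on simulated data. Total read counts are unknown, and p-values reflect the spread between 8 mice.

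Named were the 8 genes of highest mean level, the 5 of largest difference, every tested receptor, 15 fixed genes, and, from the list of other chemokine system genes, those with an unadjusted p under 0.05 and the atypical receptors. Results for some genes are not reported here. The genes and lists were chosen with earlier results of these data known. Mouse numbers 2, 3 and 5 occur in both groups; same-numbered libraries correlated at -0.229, -0.155 and -0.393 in their deviations from the group means, so the numbers were not used as pairs.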

Additional observations from a re-analysis of the deposited data

Results flagged for a closer look

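Among 58 groups of 4 mice checked (29 genes in each treatment group), 8 held a mouse whose gap to the nearest other, as a share of the group's range in log2(FPKM + 1), was past Dixon's limit for 4 values, where chance gives about 2.9 for normal values and genes not chosen by their values. Some of the 29 were chosen by their values, and 6 of the 8 are in 1 library, so the counts are not a test. Cxcl1 in rFGF4 mouse 5 was at 0.648 FPKM against 32.0 to 50.6 FPKM in the other treated mice, a share of 0.87. Cx3cr1 in rFGF4 mouse 1 was at 3.53 FPKM against 0.99 to 1.23 FPKM (0.862). Vehicle mouse 5 held the remaining 6, with Cxcr5 at 1.51 FPKM against 0.0308 to 0.0561 FPKM (0.973), Ccl22 at 4.68 FPKM against 0 to 0.079 FPKM (0.956), Ccr7 at 2.21 FPKM against 0 to 0.0924 FPKM (0.924), Cxcr6 at 11.3 FPKM against 0.182 to 0.382 FPKM (0.933), Ccl17 at 8.78 FPKM against 0.164 to 0.386 FPKM (0.918) and Cxcl14 at 16.5 FPKM against 3.55 to 4.32 FPKM (0.884).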

How the results depend on the processing

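Of 16 alternatives, none gave a chemokine or receptor gene an adjusted p under 0.05 in limma, the smallest being 0.382. As each mouse was left out, the number of these genes past the study's threshold ran from 0 to 4, and over all genes from 188 to 580. The number at an unadjusted p under 0.05 likewise ran from 0 to 4, and over all genes from 431 to 1430, both highest without rFGF4 mouse 5. With the macrophage covariate, added after the data were seen, the family had 3 past the threshold, beside 301 of all genes. At an unadjusted p under 0.05 that fit had 4 of the family, beside 1291 of all 15150 genes. With no filter on low values, 1 of 56 family genes (Ccl27b) had an unadjusted p under 0.05, beside 1233 of 30244 genes. A pseudocount of 0.1 gave 348 genes in all, and scaling to a common median ratio gave 176, 93 higher and 83 lower against 165 and 67, with the median of all genes at -0.01. Only 11 of the 36 kept their sign in every alternative in which they were tested (Ccl4, Ccl19, Ccl20, Ccl21b, Ccl25, Ccl28, Cx3cl1, Cxcl1, Cxcl3, Cxcl12 and Cxcl14).

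The range over single mice left out held 0 for 20 of the 36. They included Ccl5 (-0.36 to 1.11), Ccl6 (-0.25 to 1.03), Ccl8 (-1.45 to 0.62), Ccl21a (-0.56 to 0.37), Cxcl5 (-0.48 to 1.12), Cxcl9 (-0.65 to 0.21), Cxcl10 (-0.43 to 0.44), Cxcl13 (-0.80 to 0.52), Ccr1 (-0.46 to 0.22), Ccr2 (-0.38 to 0.28), Cx3cr1 (-0.12 to 0.29), Cxcr2 (-0.32 to 0.28), Cxcr4 (-0.09 to 0.86) and Cxcr6 (-0.48 to 0.82). Without rFGF4 mouse 1 and vehicle mouse 5 together, Ccl21a was 0.43, Ccl8 0.12, Ccr2 0.08, Cxcl13 0.30 and Cxcr2 0.06. A pseudocount of 0.1 turned Ccr2 to 0.09 and Cxcr2 to 0.25, and scaling turned Cxcl10 to -0.08 and Cxcr6 to -0.05. The macrophage covariate turned Ccl5 to -0.17, Ccl6 to -0.06, Cxcl5 to -0.20, Cxcl10 to -0.27 and Cxcr6 to -0.32. Of these genes, none was called in the fit reported, and the cause was not tested.

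A replicate block on numbers 2, 3 and 5, which the check does not show to be pairs, called 264 genes in all and 0 of the family, and turned Ccl17 to -0.03, Ccl2 to -0.21, Ccl5 to -0.37, Ccl6 to -0.60, Cx3cr1 to -0.25, Cxcl10 to -0.50, Cxcl16 to -0.22, Cxcl5 to -0.42, Cxcr4 to -0.16 and Cxcr6 to -0.74. The depth in reads is not known, so values near 0 carry an unknown counting error.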

Other observations

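The ratio of Cxcl1 to Cxcl2, neighbouring genes whose promoters share GGGAATTTCCC, was 4.05, 13.9, 15.9 and 0.256 in rFGF4 mice 1, 2, 3 and 5. In vehicle mice 3, 4 and 5 it was 0.438, 0.128 and 1.52, and vehicle mouse 2 had Cxcl2 listed at 0 with Cxcl1 at 0.26 FPKM. The ratio was noticed after the values were seen and was not tested.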
